A study of Mus musculus with 6 samples.

Results

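Pericytes and vascular smooth muscle cells of one tissue, the infarcted mouse heart, were set against each other in a single library. Pericytes were cells with at least 3 of the 5 transcripts Kcnj8, Abcc9, Higd1b, Colec11 and Vtn and with fewer than 5 Myh11 UMIs (unique transcript molecules) per 10000. Smooth muscle cells were cells with at least 10 Myh11 UMIs per 10000 and no UMI of Kcnj8 or Higd1b. Cells with a UMI of Cdh5, Pdgfra or Ptprc, which mark endothelial cells, fibroblasts and leukocytes, belonged to neither class. The rule found 998 pericytes and 132 smooth muscle cells among 9470 barcodes of the library, of which 8681 had at least 500 genes and at most 10% mitochondrial UMIs. They are 1130 of the 44766 barcodes in the 6 libraries of the study.

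The library came from the infarct area of the left ventricle of hearts with LAD ligation, in which the left anterior descending artery is tied off, with the atria removed. The mice were Tbx18CreER/+;Rosa26tdT/+: after tamoxifen, given into the peritoneum for 4 days and followed by a washout that the labels give in weeks without a number, cells expressing Tbx18 and their progeny carry the red fluorescent protein tdT. Cells were sorted for tdT and read with the 10x 3′ version 3 chemistry, and the 2 other heart libraries used below, of the peri-infarct area after LAD ligation and of ventricles after sham surgery, came from mice of the same genotype by the same protocol. The labels give neither the number of animals nor the time after injury, and there is 1 library per condition, so no difference below has a replicate check and no test across samples was possible. All groups share 1 CreER-bearing Tbx18 allele and the same sort. Mural cells left unlabelled by tamoxifen are meant to be outside these data, and how strictly the sort kept them out was not tested.

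Pericytes sit on capillaries within the basement membrane that they share with the endothelium, and signal to it through ligands, matrix and gap junctions. Vascular smooth muscle cells wrap arteries and arterioles and set their bore through an actin and myosin apparatus that is switched on by calcium. Both belong to one family of mural cells, share Pdgfrb, Notch3 and Rgs5 to different degrees, and are joined by intermediate cells along the vessel tree, and how much of a scar's matrix each makes is a standing question in the heart.

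The 2 classes were read at similar depth. The pericytes held 6059637 UMIs with a median of 4271.5 per cell and the smooth muscle cells 887113 with a median of 5574, and the medians of detected genes were 1914.5 and 2110. Mitochondrial UMIs had medians of 4.88% and 6.44%. For reference, the same library held 164 endothelial cells with a Cdh5 UMI (median 5005 UMIs) and 4199 fibroblasts with a Pdgfra UMI (median 12897). Barcodes shared between libraries numbered 147 for infarct and peri-infarct and 69 for infarct and sham, and 1 of these was a member cell in both infarct and sham. Scrublet, a doublet caller, marked 226 of the 8681 cells by its own threshold. Taking the highest scores in the share expected from the barcode number, 7.58%, marked 658 cells, of which 31 were pericytes and 2 smooth muscle cells. The members below include them.

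The genes that chose the cells describe the choice and support nothing else. In summed UMIs scaled to 1000000 (CPM), Kcnj8 stood at 652 in pericytes and had 0 UMIs in smooth muscle, Higd1b at 667 and 0 UMIs, Abcc9 at 756 and 19.2, Colec11 at 931 and 40.6, Vtn at 545 and 14.7, and Myh11 at 80.5 and 4638. Myh11 per 10000 UMIs ran from 10.5 to 140.02 over the smooth muscle cells with a median of 37.2, and from 0 to 4.97 over the pericytes. Cells lay close to these limits on both sides. Just outside the pericyte limit, 92 cells with at least 3 pericyte genes had 5 to 10 Myh11 UMIs per 10000, and 125 more had 10 or more. In all, 367 cells had Myh11 at 10 or more together with a UMI of Kcnj8 or Higd1b, more than the 132 smooth muscle cells that the rule kept.

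Transcripts that the rule did not name ran along the same axis. The smooth muscle actin Acta2 stood at 1347 CPM in the 788 pericytes without a Myh11 UMI, at 5531 in the 210 with some, at 7333 and 11890 in the 92 and 125 cells beyond the limit, and at 16736 and 18200 in smooth muscle cells under and over 20 Myh11 UMIs per 10000. Pln stood at 1.03 and 1.38 CPM in the pericytes, 26.7 and 66.9 in the cells beyond the limit and 541 and 1066 in smooth muscle. Steap4 was lower toward smooth muscle, at 697, 278, 321 and 180 CPM in the cells with pericyte genes and at 35.1 and 12.1 in smooth muscle. Notch3, shared by mural cells, stayed between 408 and 713 CPM in all 6 groups. Summed, the 20 smooth muscle cells nearest the limit, with 10 to 20 Myh11 UMIs per 10000, stood apart in collagens. Col1a1 was at 2502 CPM there and at 263 in the other 112, and Col3a1 at 3838 and 544. How many of the 20 cells carried these UMIs was not counted.

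**Figure D1:**
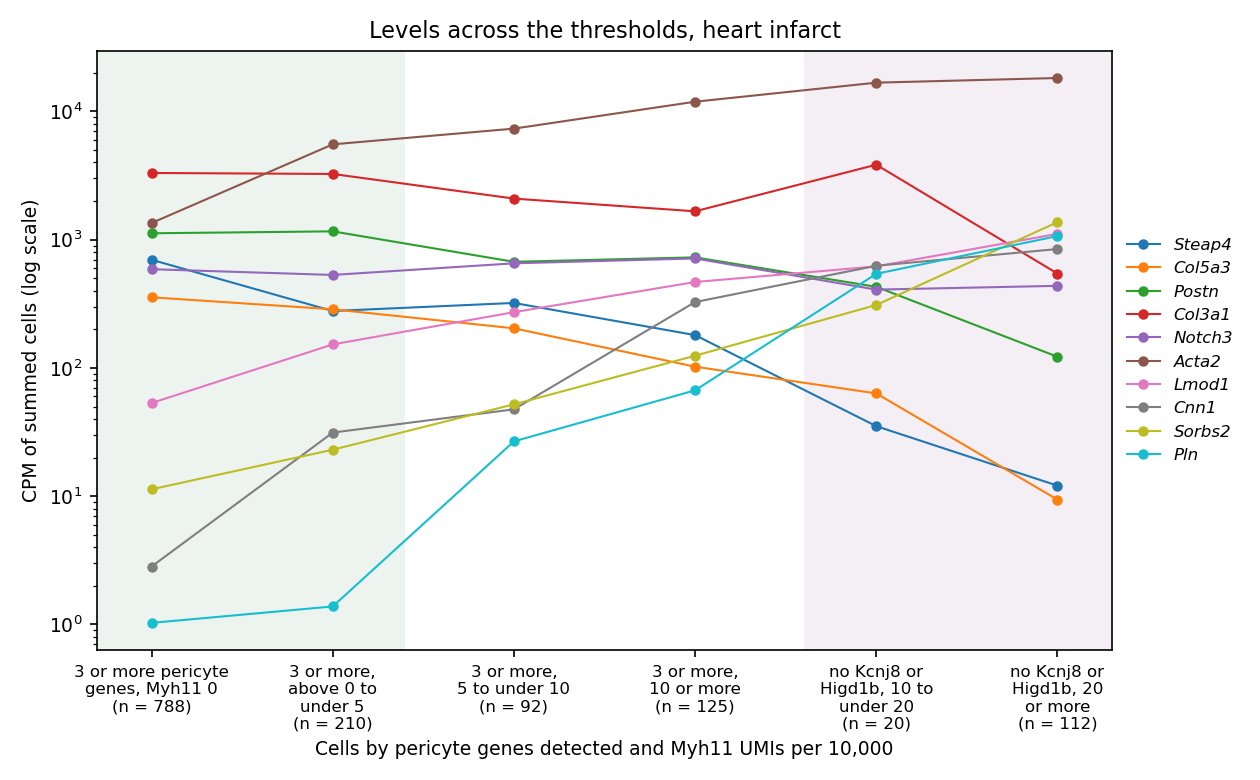
Levels of 10 genes (CPM of summed cells, log scale) in 6 groups of heart infarct cells ordered by pericyte genes detected and Myh11 UMIs per 10000; shaded groups are the pericytes (left) and smooth muscle cells (right), and the unshaded groups between them are in neither class. Acta2 runs from 1347 to 18200 CPM, Pln from 1.03 to 1066, and Col3a1 is highest at 3838 in the 20 smooth muscle cells with 10 to 20 Myh11 UMIs.

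Markers of other cell types were measured in both classes. The 10 endothelial markers summed to 1179 CPM in pericytes and 215 in smooth muscle against 23664 in endothelial cells, and Fabp4 alone was 1077 and 192 of those. Pecam1 stood at 1.98 and 1.13 CPM, and 1 of the markers in pericytes and 4 in smooth muscle were at 0. The 10 fibroblast markers summed to 1141 CPM in pericytes and 441 in smooth muscle against 12831 in fibroblasts, led by Dcn at 627 and 251. The 10 activated fibroblast markers summed to 1569 and 381 against 6148. The macrophage list summed to 23.6 and 14.7 CPM, the T and B cell list to 0.990 and 1.13, the Schwann or glial list to 16.8 and 6.76, the mesothelial list to 116 and 75.5, and the red blood cell list to 1.98 and 1.13. Of 10 cardiomyocyte markers, 7 (Myh6, Tnni3, Mb, Myl2, Myl3, Nppa and Ttn) had 0 UMIs in smooth muscle, where Pln and Tnnt2 (75.5 CPM) made up nearly all of the 1062 CPM. By its own lists, the pericyte class held all 11 pericyte markers above 20 CPM, and the smooth muscle class all 10 smooth muscle markers. The rule supplied 5 and 1 of these. This level did not part the classes: 7 of the 11 pericyte markers passed it in smooth muscle, and 8 of the 10 smooth muscle markers in pericytes. Summed, the pericyte markers stood at 15502 CPM in pericytes and 4081 in smooth muscle, and the smooth muscle markers at 6110 and 46234.

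Across the genome, 3027 genes had a mean of at least 50 CPM. Of these, 246 (8.13%) were at least 2-fold higher in pericytes and 273 (9.02%) at least 2-fold higher in smooth muscle, on the scale of log2 ratios of (CPM + 1), pericytes over smooth muscle. The median ratio of all tested genes was 0.16, and scaling by TMM factors moved it to -0.02 and the counts to 182 and 331. With 1 library these counts describe its cells and carry no p-value. The shares of 8.13% and 9.02% are the ones to set beside the counts of each gene list below. Exact Poisson 95% intervals are given for folds and cover counting error only.

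**Figure D2:**
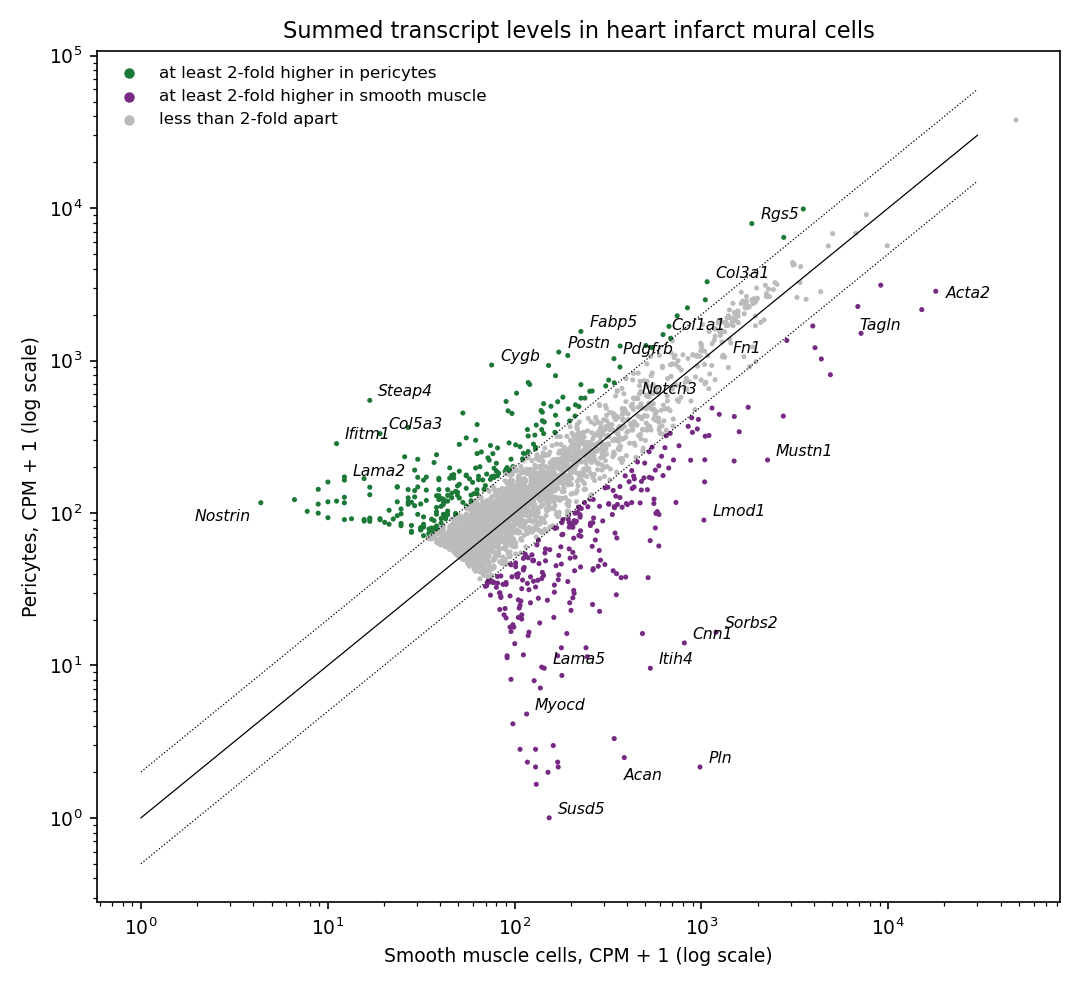
Level of each of the 3027 tested genes in smooth muscle (x axis) and pericytes (y axis) of the heart infarct library, as CPM + 1 on log scales; the solid line marks equal levels, dotted lines 2-fold. Rgs5 and Col3a1 lie above the band, Acta2, Tagln and Pln below it, and Fn1 and Notch3 inside it.

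Steap4, a metalloreductase of the cell membrane, had the highest ratio toward pericytes and stood at 547 CPM in pericytes on 3312 UMIs and at 15.8 in smooth muscle on 14, a 34.6-fold difference (20.6 to 63.4). Nostrin, which binds endothelial nitric oxide synthase and directs its traffic, was at 116 against 3.38 CPM, and the interferon-induced membrane protein Ifitm1 at 284 against 10.1 (28.0-fold, 14.7 to 61.3). Ifitm1 is one of a family of near-identical genes whose reads may be split between copies, so its value is uncertain. Steap4 and Ifitm1 were low in the other classes of the library too, at 22.9 and 13.7 CPM in endothelial cells and 20.9 and 8.92 in fibroblasts, while Nostrin reached 60.4 in endothelial cells. Next came the actin regulator Eps8 (121 against 5.64 CPM), the collagen chain Col5a3 (331 against 18.04), the endothelin receptor Ednrb (142 against 7.89), the phosphatidylserine lipase Pla1a (159 against 9.02) and Rgs16, a brake on G protein signals (171 against 11.3). Arhgdib stood at 363 against 25.9 CPM, the nucleotide-sugar receptor P2ry14 at 113 against 7.89, the cell adhesion molecule Ntm at 117 against 9.02 and Nt5dc2 at 101 against 6.76. Cygb, the globin of stellate cells and fibroblasts, was the most abundant of these genes, at 934 against 74.4 CPM, and it was also high in fibroblasts, at 760.

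Per cell, thinning every cell to 2000 UMIs (45 pericytes and 3 smooth muscle cells were shallower and left out) put a Steap4 UMI in 64.0% of 953 pericytes and in 2.33% of 129 smooth muscle cells, against 83.7% and 7.58% unthinned. Endothelial cells gave 3.82% for Steap4. The share for Col5a3 was 43.5% against 3.88%, for P2ry14 25.6% against 1.55%, and for Thy1, a surface glycoprotein, 46.4% against 7.75%. In endothelial cells Col5a3 was at 0.637%.

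Of the 22 tested members of the pericyte identity list, 10 were at least 2-fold higher in pericytes and 0 in smooth muscle, with a median of 0.88. Beside Steap4, Ednrb, Pla1a and P2ry14 these were Rgs5, Pdgfrb, Cd36, Nrp1, Ggt5 and Ndufa4l2. Rgs5, which shortens G protein signals, stood at 7913 CPM against 1860 (4.25-fold, 4.05 to 4.47). The PDGF receptor Pdgfrb, through which endothelial PDGF-B recruits pericytes, stood at 1028 against 339. Classical mural markers were not all on that side: Notch3 was at 568 against 432 CPM (0.39), the surface proteoglycan Cspg4, known as NG2, at 164 against 322 (-0.97), and the adhesion molecule Mcam, or CD146, at 227 against 375 (-0.72). The ratios below 0 were seen in the infarct library alone. In the peri-infarct and sham libraries described below, Cspg4 stood at 0.27 and 0.95 and Mcam at 0.12 and 0.001. The aminopeptidase Anpep, or CD13, stood at 28.9 CPM against 2.25 on 2 smooth muscle UMIs, a ratio of 12.8 with an interval of 3.49 to 107. Tbx18, whose CreER allele labelled the cells, was low in both, at 34.7 CPM (30.1 to 39.7) and 19.2 (11.2 to 30.7). When smooth muscle cells with a UMI of Kcnj8 or Higd1b were kept, the ratio of Rgs5 was 0.53 in place of 2.09.

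Pln, phospholamban, which holds back the calcium pump of the sarcoplasmic reticulum, had the highest ratio toward smooth muscle, at 982 CPM there on 871 UMIs against 1.16 in pericytes on 7, an 850-fold difference (411 to 2120.3). A Pln UMI was found in 75.2% of thinned smooth muscle cells, 0.210% of pericytes, 5.10% of endothelial cells and 0.0716% of fibroblasts. The cartilage proteoglycan aggrecan, Acan, stood at 386 CPM in smooth muscle against 1.49, and the pairs below keep this order. Susd5 had 135 UMIs in smooth muscle, 152 CPM, and 0 in pericytes, at least 307-fold higher where 3 counts in the pericyte sum are taken as its floor. Sorbs2, an adaptor of stress fibres and Z-discs, was at 1198 against 15.5 CPM and the calponin Cnn1, which binds actin and restrains myosin, at 809 against 13.0. The muscle genes Sh3bgr (340 against 2.31), Pgam2, a muscle phosphoglycerate mutase (170 against 1.16), and Rbm24, a splicing factor of striated muscle (116 against 1.32), stood beside them. Corin, the protease that activates natriuretic peptide, was at 129 against 1.16 CPM, Entpd1, an ectonucleotidase, at 130 against 0.660, Perp, a desmosome protein, at 169 against 1.32, Itih4 at 532 against 8.58, Cdh6, a cadherin, at 160 against 1.98, and Synm, an intermediate filament protein, at 129 against 1.82.

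Of 15 tested thin filament genes 0 were at least 2-fold higher in pericytes and 8 in smooth muscle, with a median of -2.10. Acta2 stood at 17965 CPM in smooth muscle and 2846 in pericytes (6.31-fold, 6.18 to 6.45), and Tagln, a calponin-related actin bundler, at 15120 and 2157. Pericytes were well above endothelial cells, which held 119 CPM of Acta2 and 174 of Tagln. An Acta2 UMI was found in 100% of thinned smooth muscle cells and 54.8% of pericytes, against 9.55% of endothelial cells. Thinned smooth muscle cells held a median of 92 UMIs of the thin filament list, with quartiles of 73 and 120, and pericytes a median of 14, with quartiles of 9 and 25. Lmod1, which nucleates actin filaments in smooth muscle, stood at 1030 against 88.8 CPM, and the enteric actin Actg2 at 566 against 78.7, a gene that may share reads with Acta2. The non-muscle tropomyosin Tpm4 (0.56), the calponin Cnn3 (0.58) and Fhl2 (0.66) had ratios above 0, while Tpm1 and Tpm2, the smooth muscle tropomyosins, stood at -2.10 and -2.25.

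The myosin list gave the same picture, with 10 of 16 genes at least 2-fold higher in smooth muscle, 2 in pericytes and a median of -1.22. The regulatory light chain Myl9 stood at 4901 against 806 CPM, its kinase Mylk at 1779 against 493, and the myosin phosphatase subunits Ppp1r12a at 875 against 221 and Ppp1r12b at 336 against 40.8. The 2 members higher in pericytes were parts of non-muscle myosin, the heavy chain Myh9 (498 against 220 CPM, 1.18) and the light chain Myl12b (172 against 74.4, 1.20). Non-muscle myosin was not all on that side: the heavy chain Myh10 stood at 78.9 CPM in smooth muscle and 31.5 in pericytes (-1.30). Mustn1, a small muscle protein, stood at 2259 against 221. Of 20 cytoskeletal anchoring genes, 14 were at least 2-fold higher in smooth muscle and 0 in pericytes (median -1.67), among them Csrp1 (1496 against 218 CPM), Palld (592 against 96.7), Synpo2 (352 against 67.5), Flna (-2.23) and desmin, Des (886 against 420). Vimentin, Vim, had a ratio of -0.05. Of 15 tested smooth muscle identity genes 12 were higher in smooth muscle and 0 in pericytes (median -2.70). All 15 ratios were below 0.

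The CArG box, the site bound by serum response factor with its partner myocardin, lies before many contractile genes. In RefSeq promoters of mouse build GRCm38.p6 (250 bases before to 50 after the start, 2400 tested genes with an entry), a CArG box of 10 letters, CC followed by 6 of A or T and then GG, which reads alike on both strands, was found before 12 of 212 genes at least 2-fold higher in smooth muscle (5.66%), 5 of 176 higher in pericytes (2.84%) and 38 of 2012 others (1.89%). All 32851 promoters gave 535 (1.63%). Of the tested genes of the contractile and anchoring lists, 7 of 45 held a box (15.6%), and 3 of the 27 that were higher in smooth muscle (11.1%). The promoters of Acta2, Cnn1, Lmod1 and Pln hold no exact match in this window. The strict pattern misses sites that differ from it by a letter, such as ccctatatgg in the Acta2 window, so no match does not mean no CArG box. The 4 promoters below are shown because they hold a box, in capitals, before genes far apart between the classes: 3 higher in smooth muscle, of which Myl9 is the most abundant, and 1, Lama2, higher in pericytes. Asb2, a ubiquitin ligase subunit that targets filamins, stood at 150 CPM in smooth muscle and 0.990 in pericytes, and its box lies 64 bases upstream of the start, in the minus-strand window chr12:103355952-103356251. The RefSeq table gives 2 promoters for Asb2, and the other holds no box. Fbxl22, an F-box protein of the sarcomere, stood at 482 against 15.2 CPM, with a box 222 bases upstream at chr9:66514544-66514843, minus strand. The box of Myl9 lies 161 bases upstream at chr2:156775214-156775513, plus strand, and that of Lama2, at 163 CPM in pericytes against 11.3, lies 39 bases upstream at chr10:27616893-27617192, minus strand. Each line reads 5′ to 3′ along the gene.
Asb2: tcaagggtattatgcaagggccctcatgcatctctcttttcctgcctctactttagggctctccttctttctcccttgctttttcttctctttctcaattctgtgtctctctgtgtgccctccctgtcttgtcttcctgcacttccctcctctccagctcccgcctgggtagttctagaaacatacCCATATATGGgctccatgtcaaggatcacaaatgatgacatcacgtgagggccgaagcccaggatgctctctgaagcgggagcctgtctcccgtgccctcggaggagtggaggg
Fbxl22: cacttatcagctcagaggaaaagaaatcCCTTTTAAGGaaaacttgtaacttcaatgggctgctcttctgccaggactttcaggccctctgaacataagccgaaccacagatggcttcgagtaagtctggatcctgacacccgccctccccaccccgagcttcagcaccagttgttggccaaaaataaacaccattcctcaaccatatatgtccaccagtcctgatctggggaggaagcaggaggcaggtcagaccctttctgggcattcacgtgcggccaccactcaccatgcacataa
Myl9: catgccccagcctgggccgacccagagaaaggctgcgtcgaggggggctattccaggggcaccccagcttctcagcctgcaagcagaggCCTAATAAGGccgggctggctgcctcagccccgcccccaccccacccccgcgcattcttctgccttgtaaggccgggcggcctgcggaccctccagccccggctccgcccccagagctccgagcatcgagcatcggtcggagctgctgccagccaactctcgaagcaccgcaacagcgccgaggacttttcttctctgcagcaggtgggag
Lama2: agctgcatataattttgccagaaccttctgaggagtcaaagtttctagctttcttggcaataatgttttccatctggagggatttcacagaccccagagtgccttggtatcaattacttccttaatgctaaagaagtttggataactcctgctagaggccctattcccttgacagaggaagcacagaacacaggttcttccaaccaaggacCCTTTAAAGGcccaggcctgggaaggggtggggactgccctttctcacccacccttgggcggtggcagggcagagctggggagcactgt
The 4 genes were chosen for display after their values and boxes were seen.

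Transcription factors mostly lay within 2-fold, with 5 of 20 higher in pericytes and 1 in smooth muscle (median 0.36). The 1 was Myocd, myocardin, at 115 CPM against 3.80 (30.3-fold, 19.1 to 49.9), with a UMI in 24.8% of thinned smooth muscle cells and 0.839% of pericytes. On the pericyte side were the nuclear receptor Nr2f1 (140 against 32.7 CPM), Zeb2 (694 against 225), Tbx20 (119 against 41.7), Sox4 (187 against 78.9) and the early B cell factor Ebf1 (680 against 307). The factors Mef2c (-0.85) and Tbx2 (-0.98) had ratios under 0 without reaching 2-fold.

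Calcium handling stood higher in smooth muscle in 6 of 13 tested genes and in pericytes in 0 (median -1.0). Beside Pln these were its target, the calcium pump Atp2a2 (525 against 170 CPM), the inositol trisphosphate receptor Itpr1 (254 against 81.7), the plasma membrane pumps Atp2b4 (177 against 45.2) and Atp2b1 (390 against 174), and Kcnmb1, the beta subunit of the large-conductance potassium channel (87.9 against 22.6). The receptors for vasoactive ligands divided. Both endothelin receptors were higher in pericytes, Ednrb as above and Ednra at 229 against 71.0 CPM, and so was P2ry14, while Ramp1, the partner of the receptor for calcitonin gene-related peptide, stood at 349 CPM in smooth muscle and 28.1 in pericytes. The sphingosine receptor S1pr3 (151 against 123) and the parathyroid hormone receptor Pth1r (103 against 89.9) were less than 2-fold apart. An Ednra UMI was found in 39.2% of thinned pericytes and 12.4% of smooth muscle cells, and an Ednrb UMI in 15.9% and 1.55%, with 14.6% for Ednrb in endothelial cells.

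Downstream of these receptors, 3 of 13 tested cyclic nucleotide genes were higher in smooth muscle and 0 in pericytes (median -0.44). They were the adenylyl cyclase Adcy5 (133 against 26.6 CPM), Mrvi1, a target of cyclic GMP kinase (224 against 75.4), and the phosphodiesterase Pde3a (365 against 148). The nitric oxide receptor subunits Gucy1a1 (-0.44) and Gucy1b1 (0.26) lay within 2-fold. The 4 tested RGS genes split, Rgs5 and Rgs16 on the pericyte side and Rgs7bp, which anchors RGS proteins, at 197 against 49.5 CPM in smooth muscle, with Rgs4 at 365 against 225. Of 7 solute carriers and pumps, 1 was higher in pericytes, the sodium-potassium-chloride carrier Slc12a2 (131 against 15.8). A list of 7 is too short to set beside the 8.13% of all tested genes.

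**Figure D3:**
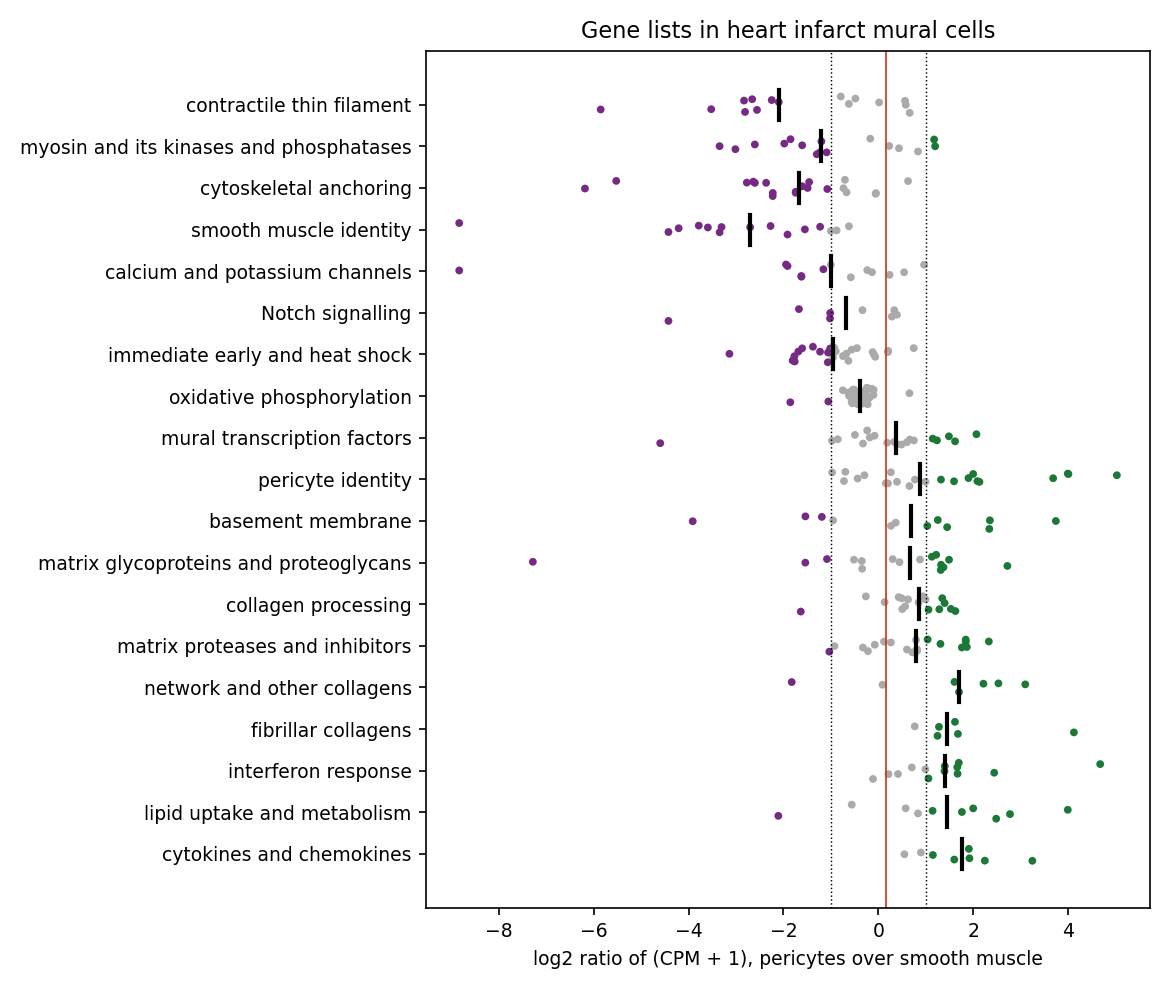
Log2 ratios of (CPM + 1), pericytes over smooth muscle, for the tested members of 19 gene lists in the heart infarct library; each point is a gene, black bars are list medians, dotted lines mark 2-fold and the red line the median of all tested genes, 0.16. Medians run from -2.70 for smooth muscle identity to 1.76 for cytokines and chemokines.

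Collagen transcripts stood higher in the pericytes. Of 6 tested fibrillar chains, 5 were at least 2-fold higher in pericytes and 0 in smooth muscle, with a median of 1.45. Col3a1 stood at 3288 CPM against 1072 (3.07-fold, 2.87 to 3.28), Col1a1 at 1479 against 622 (2.38-fold, 2.18 to 2.60), Col5a1 at 244 against 75.5, Col5a2 at 630 against 259 and Col1a2 at 1724 against 1012 (0.77). Fibroblasts of the same library were far above both, at 11392 CPM of Col3a1 and 6551 of Col1a1, and endothelial cells were at 638 and 626, so that the Col1a1 level of smooth muscle was close to that of endothelial cells. Col5a3 was the exception among the chains, with more in pericytes (331) than in fibroblasts (131). Of 7 other collagens 5 were higher in pericytes: the 3 collagen VI chains Col6a1 (696 against 119 CPM), Col6a2 (449 against 95.8) and Col6a3 (457 against 140), Col15a1 (451 against 51.9) and Col8a1 (150 against 48.5). Col18a1, the endostatin precursor, was at 622 CPM in smooth muscle and 175 in pericytes.

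The difference was spread over the pericytes but not over the smooth muscle cells. Thinned pericytes had a median of 9 fibrillar collagen UMIs, with 7 of 953 cells at 0, and the richest 10% of cells held 32.1% of these UMIs. Thinned smooth muscle cells had a median of 1, with 31 of 129 cells at 0, and the richest 10% held 66.0%. Endothelial cells had a median of 0 and fibroblasts of 53. A Col1a1 UMI was found in 64.4% of thinned pericytes (61.3% to 67.5%), 18.6% of smooth muscle cells (12.3% to 26.4%) and 15.3% of endothelial cells (10.0% to 21.9%), and a Col3a1 UMI in 92.7%, 38.8% and 22.9%. Unthinned, the Col1a1 shares were 76.9%, 35.6% and 30.5%. The smooth muscle share for Col1a1 could not be told from that of endothelial cells at this depth, and is not read as expression. This does not extend to Col1a2. A Col1a2 UMI was found in 51.9% of thinned smooth muscle cells (43.0% to 60.8%) and 16.6% of endothelial cells (11.1% to 23.3%), against 81.0% of pericytes.

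The fibroblast markers moved with the collagens, and their part in the result was not tested. Dcn was at 627 CPM in pericytes and 251 in smooth muscle, with a UMI in 27.4% of thinned pericytes, 13.2% of smooth muscle cells, 12.1% of endothelial cells and 99.5% of fibroblasts. The ratio of Col1a1 depended on the limits of the classes. It was 0.30 with at most 5% mitochondrial UMIs, which left 35 smooth muscle cells, 0.70 with more exclusion genes, 0.64 with no exclusion genes, 0.05 with cells thinned before the rule and 0.99 without dividing cells. Under 3 of these settings Col3a1 also fell short of 2-fold, at 0.55 with at most 5% mitochondrial UMIs, 0.78 with no exclusion genes and 0.79 with cells thinned before the rule, and the list median was 0.54, 0.71 and 0.70. With Myh11 of at least 20 per 10000, which takes out the 20 smooth muscle cells whose sum was rich in collagen, the list median was 2.26.

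**Figure D4:**
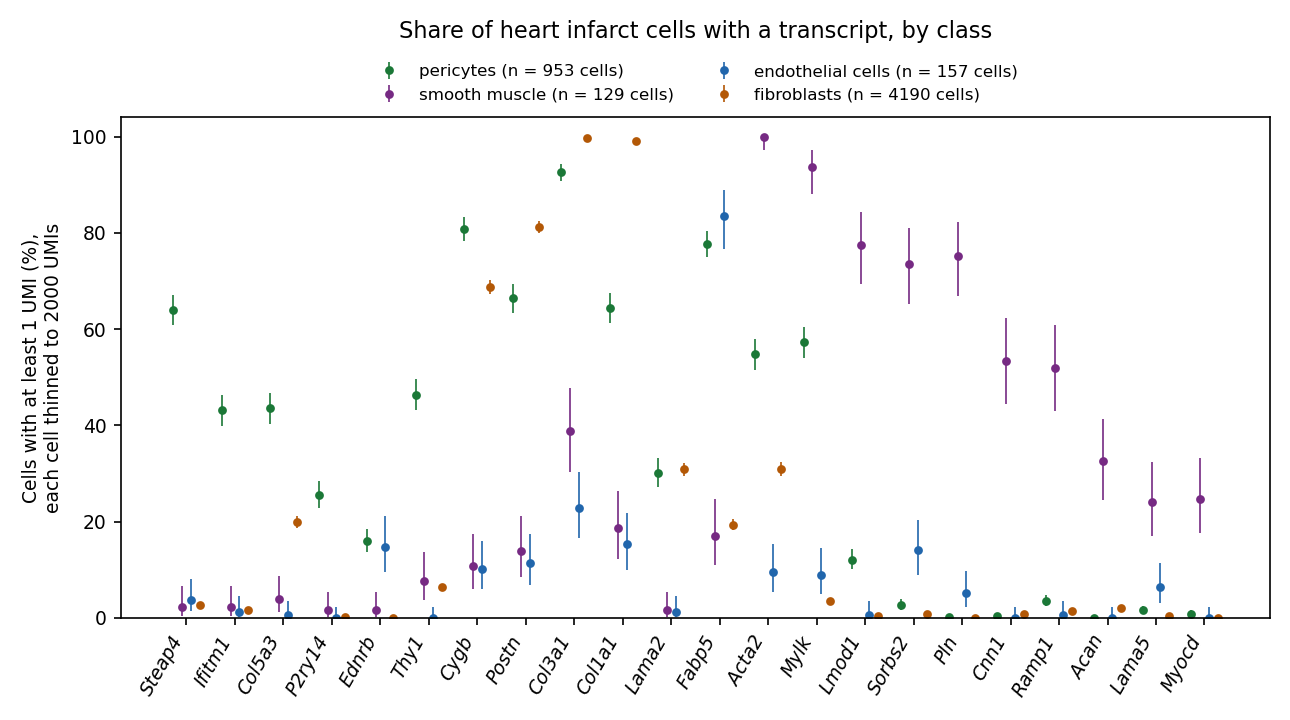
Share of cells with at least 1 UMI of each of 22 genes in 4 classes of heart infarct cells, every cell thinned to 2000 UMIs; bars are exact Clopper-Pearson 95% intervals, which cover counting error only. Steap4 is found in 64.0% of pericytes and at most 3.82% of the other classes, Pln in 75.2% of smooth muscle cells, and Col1a1 in 64.4% of pericytes, 18.6% of smooth muscle cells and 99.1% of fibroblasts.

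Other matrix genes did not all follow. Of 16 tested glycoproteins and proteoglycans 7 were higher in pericytes and 3 in smooth muscle (median 0.66). Periostin, Postn, the matricellular protein of healing scar, stood at 1135 CPM against 171 (6.62-fold, 5.64 to 7.83), with a UMI in 66.4% of thinned pericytes, 13.95% of smooth muscle cells and 11.5% of endothelial cells. Mgp, which restrains calcification, stood at 9865 against 3510 CPM and Aspn, asporin, at 565 against 225. Fibronectin, Fn1, was close between the classes, at 1051 CPM in pericytes and 1331 in smooth muscle (-0.34), and stood at 448 in endothelial cells. Beside Acan, smooth muscle had more of thrombospondin, Thbs1 (591 against 203) and of Sparcl1 (-1.08). The fibroblast genes Cthrc1 (83.3 against 31.6) and Dcn were among the 7, and Cthrc1 changed sign in 4 settings.

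Of 12 tested basement membrane genes 6 were higher in pericytes and 3 in smooth muscle (median 0.70). Pericytes had more Lama2 (163 against 11.3 CPM), Lama4 (110 against 39.5), Lamb1 (171 against 32.7), nidogen Nid1 (466 against 91.3), and the collagen IV chains Col4a1 (2502 against 1048) and Col4a2 (1.03). Smooth muscle had more of the laminin chains Lama5 (143 against 8.58, 16.7-fold, 12.0 to 23.5) and Lamb2 (365 against 125) and of the netrin Ntn4 (-1.19), while the gamma chain Lamc1, which pairs with both sets, had a ratio of 0.37. A Lama2 UMI was found in 30.1% of thinned pericytes, 1.55% of smooth muscle cells and 30.9% of fibroblasts, and a Lama5 UMI in 1.57%, 24.0% and 0.477%. Integrins split as well: the collagen receptor Itga1 (743 against 318) and Itgb5 (431 against 210) were higher in pericytes, and Itga8 (192 against 34.5) and the integrin-linked adaptor Lims2 (99.2 against 12.9) in smooth muscle.

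Elastic fibre genes divided, 4 of 9 higher in pericytes and 2 in smooth muscle (median 0.76, and -1.65 in the peri-infarct library described below). Fbn1, fibrillin, stood at 536 against 169 CPM and Ltbp4 at 538 against 89.1, whereas elastin, Eln, was at 543 CPM in smooth muscle and 269 in pericytes and Ltbp1, which tethers latent TGF-beta, at 169 against 10.6. Collagen processing genes were higher in pericytes in 6 of 17 and in smooth muscle in 1 (median 0.85): the cross-linker Loxl2 (287 against 92.4), the procollagen proteases Bmp1 (164 against 66.5) and Adamts2 (271 against 106), their enhancer Pcolce (376 against 130), the prolyl hydroxylase P4ha1 (129 against 48.5) and P3h3 (1.06). The 1 was the cross-linker Lox, at 220 CPM in smooth muscle and 70.1 in pericytes. Of 19 proteases and inhibitors 7 were higher in pericytes, among them Mmp2 (114 against 30.4), Mmp11 (117 against 22.5), Mmp14 (1.04), the plasminogen activator Plat (124 against 49.6) and the serpin Serpine2 (1243 against 366), and 1, Adamts1, in smooth muscle (-1.03). In the secretory pathway 2 of 26 genes were higher in pericytes, Kdelr3 (133 against 59.7) and Pdia4 (72.1 against 33.8), with a median of 0.53. That share of 7.69% was close to the 8.13% of all tested genes, so the count is not read as a trait of the list.

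Signals of inflammation stood on the pericyte side. Of 8 tested cytokine and chemokine genes, 6 were at least 2-fold higher in pericytes and 0 in smooth muscle (median 1.76). Ccl2, which draws monocytes, stood at 116 CPM against 11.3 (10.2-fold, 5.54 to 21.5), Cxcl1, which draws neutrophils, at 250.3 against 65.4, Il34, a ligand of the macrophage receptor Csf1r, at 89.3 against 18.04, and Cxcl12 at 168 against 44.0. The receptors Tnfrsf1a (221 against 72.1) and Il6st (181 against 81.2) were higher too. Ccl2 was found in few cells: 8.50% of thinned pericytes and 0.775% of smooth muscle cells. Fibroblasts held 146 CPM of Ccl2 and 813 of Cxcl1, and endothelial cells 1813 of Cxcl12. In the peri-infarct library described below Cxcl1 lay on the other side, at 112 CPM in pericytes and 175 in smooth muscle (-0.64). Its infarct ratio ranged from 0.18 to 2.83 over the settings tried.

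Of 13 interferon response genes, 8 were higher in pericytes and 0 in smooth muscle (median 1.40). Besides Ifitm1 they were the immunoproteasome subunit Psmb8 (90.3 against 15.8 CPM), Bst2 (141 against 42.8), Ifi27l2a (174 against 54.1), Ifitm3 (2215 against 841), and the class I antigen genes B2m (436 against 165), H2-D1 (574 against 180) and H2-K1 (268 against 129). H2-D1 and H2-K1 are near copies that may share reads. Among complement genes, C3, the central component of the cascade, stood at 144 CPM in pericytes and 54.1 in smooth muscle. The order was the reverse for clusterin, Clu (59.7 against 591), and Cd59a (10.6 against 90.2), which both restrain complement. Of 8 adhesion and surface genes 2 were higher in each class (median 0.10): Thy1 (379 against 62.0) and Eng in pericytes, Cdh6 and the tetraspanin Cd9 (101 against 579) in smooth muscle.

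Ligands and receptors of vessel growth were higher in pericytes in 4 of 6 tested genes (median 1.49): neuropilin Nrp1 (276 against 73.3 CPM), Angptl2 (187 against 49.6), midkine Mdk (93.2 against 31.6) and pleiotrophin Ptn (119 against 42.8). Fgfr1, the FGF receptor, stood at 108 CPM in smooth muscle and 20.5 in pericytes. In the TGF-beta list 1 of 17 was higher in pericytes, the co-receptor Eng (164 against 63.1), and 4 in smooth muscle: the ligand Tgfb2 (180 against 71.5), the inhibitor Smad7 (210 against 98.7), and the BMP targets Id1 (435 against 147) and Id2 (254 against 83.8), with a median of -0.40. In the Notch list 0 of 8 were higher in pericytes and 4 in smooth muscle (median -0.67). These were the targets Hes1 (236 against 116), Hey2 (71.0 against 34.7) and Nrarp (121 against 37.1), and Nrip2 (243 against 10.4). The receptors Notch3 and Notch1 (0.28), the ligand Jag1 (-0.33) and the target Heyl (178 CPM in pericytes, 141 in smooth muscle) lay within 2-fold. Only 2 genes each of the PDGF and Wnt lists were tested, and Pdgfrb was higher in pericytes. Tcf4 (480 against 193), which the Wnt list holds, was higher there too. The symbol Tcf4 names an E protein and not a Wnt effector, so it is not read as a Wnt gene. Of 8 CCN and IGF genes 0 were 2-fold apart in either direction (median -0.29), among them Ctgf (476 CPM in pericytes, 544 in smooth muscle).

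Fatty acid handling was higher in pericytes. Of 10 tested lipid genes 6 were at least 2-fold higher there and 1 in smooth muscle (median 1.45). The fatty acid binding proteins Fabp5 (1550 against 225 CPM, 6.87-fold, 5.98 to 7.95) and Fabp4 (1077 against 192), the fatty acid translocase Cd36 (97.7 against 23.7) and lipoprotein lipase Lpl (469 against 138) formed the group with Pla1a and Lrp1 (1.14), and prostacyclin synthase, Ptgis, stood at 259 CPM in smooth muscle against 59.4. Fabp4 and Cd36 are also abundant in endothelial cells of the library, at 15376 and 1556 CPM, where Pecam1 and Cdh5 mark the cells. A Fabp5 UMI was found in 77.8% of thinned pericytes, 17.1% of smooth muscle cells, 83.4% of endothelial cells and 19.4% of fibroblasts, and a Pecam1 UMI in 0.210% of pericytes. Whether endothelial RNA has a part in the values of Fabp4 and Cd36 was not tested. With the cells kept that have Myh11 and a UMI of Kcnj8 or Higd1b, Fabp5 was at 0.88 and Fabp4 at 0.58.

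Genes of energy metabolism were mostly less than 2-fold apart, and those of oxidative phosphorylation leaned slightly toward smooth muscle. Of 41 oxidative phosphorylation genes 0 were higher in pericytes and 2 in smooth muscle (4.88%, against 9.02% of all tested genes). The 2 were Ndufa4 (513 against 141 CPM) and Sdhc (178 against 85.3). Of the 41 ratios 40 lay below 0, with a median of -0.39 against 0.16 for all tested genes. The pericyte marker Cox4i2, an isoform of a cytochrome oxidase subunit, was the exception at 605 against 383. Of 21 glycolysis and hypoxia genes, 2 were higher in pericytes, Ndufa4l2 (1674 against 670) and P4ha1, and 0 in smooth muscle (median -0.19). These 2 were 9.52% of the list, near the 8.13% of all tested genes.

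Transcripts of dividing cells stood higher in pericytes, with few smooth muscle UMIs behind the comparison. Of 14 tested cell cycle genes 6 were higher in pericytes and 1 in smooth muscle, the arrest gene Cdkn1a (215 against 99.2 CPM), with a median of 0.78. Prc1, of the spindle midzone, stood at 98.7 CPM against 7.89 on 7 UMIs, the centromere histone Cenpa at 126 against 11.3 on 10, Cenpf at 92.1 against 9.02 on 8, Top2a at 89.6 against 14.7 on 13, and the proliferation antigen Mki67 at 91.8 against 6.76 on 6. Of thinned pericytes 9.44% (7.66% to 11.5%) had at least 2 UMIs of 11 division genes, against 2 of 129 smooth muscle cells, 1.55% (0.188% to 5.49%). The unthinned shares were 17.1% and 6.06%, and thinned fibroblasts gave 6.92%. Several of these ratios changed sign when cells were thinned before the rule chose them: Prc1 was then at -0.64, Mki67 at -0.92, Top2a at -0.90 and Cenpf at -0.50. Cenpa, at 3.37 in the comparison above, stayed above 0 in every setting tried, with a lowest value of 0.80.

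Immediate early genes stood higher in smooth muscle in 11 of 27 and in pericytes in 0 (median -0.95). Nr4a2 was at 351 against 38.9 CPM, Btg2 at 1499 against 428, Atf3 at 542 against 168, Klf2 at 667 against 196, Klf4 at 262 against 85.3, Hspb1 at 1097 against 321 and Fos at 3945 against 1684, genes that also answer to tissue digestion. Endothelial cells of the library held 1305 CPM of Klf2, more than either. Thinned smooth muscle cells had a median of 43 UMIs of the list and pericytes of 16. With at most 5% mitochondrial UMIs the median ratio was -0.06 and Atf3 stood at 0.11, so the list moved with the mitochondrial share, whose part was not tested.

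The same rule was applied to the other heart libraries. The peri-infarct library held 516 pericytes and 170 smooth muscle cells with median depths of 5013.5 and 5661 UMIs, and the sham library 238 and 3538 with 1330 and 1287. Among 3112 genes of the peri-infarct library, 315 (10.1%) stood at least 2-fold higher in pericytes and 335 (10.8%) in smooth muscle, and in sham 133 (4.29%) and 135 (4.35%) of 3102. Of the 246 genes higher in infarct pericytes, 237 had the same direction in the peri-infarct library and 197 were again at least 2-fold apart, as were 238 of the 273 on the smooth muscle side, all 273 of which kept their direction. In sham 229 and 259 kept their direction and 78 and 145 were again 2-fold apart. The median ratio of the 246 was 1.55 in infarct, 1.63 in peri-infarct and 0.68 in sham, and that of the 273 was -1.75, -1.92 and -1.03. The genes were chosen by the infarct values, so smaller values elsewhere are a description.

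**Figure D5:**
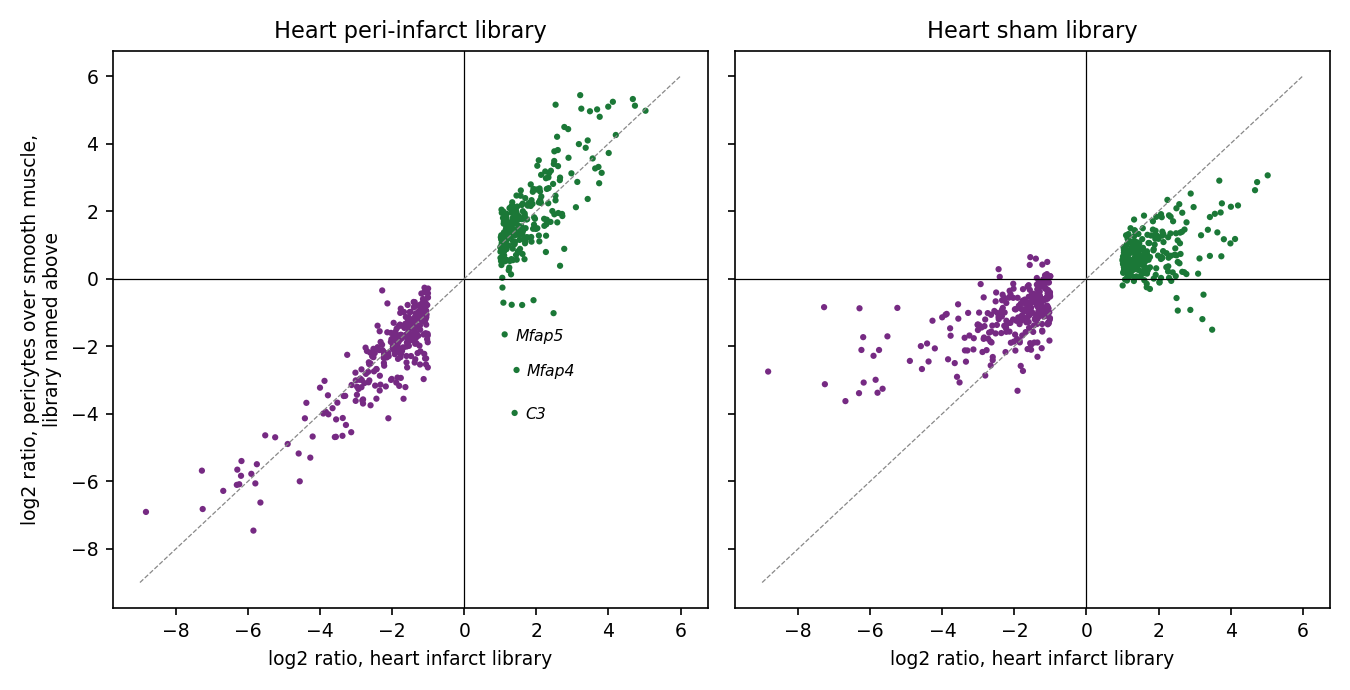
Log2 ratios of (CPM + 1), pericytes over smooth muscle, of the 519 genes at least 2-fold apart in heart infarct (x axis), plotted against the same ratio in the peri-infarct library (left) and the sham library (right); green points are higher in infarct pericytes, purple points in infarct smooth muscle, and the dashed line marks equal ratios. C3, Mfap4 and Mfap5 lie at least 2-fold on the opposite side in the peri-infarct library.

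Member by member, Steap4, Acta2, Pln and Rgs5 stayed on their side. Steap4 stood at 754 CPM against 23.0 in peri-infarct and 445.7 against 52.6 in sham, Acta2 at 2122 against 17836 and 1075 against 6392, and Pln at 4.52 against 663 and 63.7 against 434.6. Rgs5 stood at 10234 against 1606 and 6207 against 1757. Not every leading gene did so: of the 246 genes, 2 were at least 2-fold on the other side in sham. Prc1 was at 3.49 in infarct, 4.96 in peri-infarct and -1.51 in sham, and Cenpf at 3.22, 5.43 and -1.20. Ccl2 was at 3.25, 5.03 and -0.47 in the same order, while Cenpa stayed above 0 in sham, at 1.45. The collagens were less apart outside the infarct: Col1a1 at 658 against 524 CPM in peri-infarct (0.33) and 563 against 529 in sham (0.09), and Col3a1 at 1916 against 1154 (0.73) and 1065 against 951 (0.16). Postn kept more of its difference, at 955 against 263 (1.86) and 308 against 112 (1.45). Col8a1 and Dcn changed side in peri-infarct, at -0.78 and -0.77, and stood at -0.05 and -0.07 in sham. The differences between libraries were not tested, and the shallow sham cells limit how far low genes there can be read. Low depth also weakens the rule in sham. Smooth muscle cells there had as few as 751 UMIs, with a lower quartile of 953, so very few Myh11 UMIs met the limit. At such depth a cell can also lack a Kcnj8 or Higd1b UMI by low sampling. The smaller sham ratios are therefore not read as a smaller difference between the cell types, and the part of depth in them was not tested. The immediate early list was further apart in peri-infarct, with a median of -2.13 and 21 genes higher in smooth muscle.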

How the data were processed

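Reads were processed by the authors with Cell Ranger 3.0.2, Seurat 3 and the build mm10, as listed in the submitters' processing notes. The deposited matrices give UMI counts as whole numbers for 31053 genes, of which 30934 IDs matched GENCODE vM21. The members and gene lists were chosen with earlier results of these data known.

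Counts of member cells were summed per class, scaled to CPM and compared as log2 ratios with a pseudocount of 1. Genes with a mean CPM of at least 50 were tested against a 2-fold threshold, leaving out rule genes and mitochondrial genes. The text names the 15 highest and 15 lowest ratios (no ribosomal, predicted or haemoglobin gene), a fixed set of mural, matrix and proliferation genes, and up to 6 members of each list with the largest ratios. Other list members, such as Flna, Fos, Myh9 and Vim, were named after their values were seen. Lists under 3 tested genes got no median. Intervals are at 95%, exact Poisson for folds and Clopper-Pearson for shares, and cover counting error only, which the depth of a class sets. For shares each cell was thinned to 2000 UMIs. Reference endothelial cells had a Cdh5 UMI and at least 2 of 5 further endothelial genes, fibroblasts a Pdgfra UMI. The comparison was tested on simulated data. Tools were Python 3.11.15, scipy 1.17.1, scanpy 1.11.5 with Scrublet, and edgeR 4.0.16 in R 4.3.3, for TMM factors alone. Alternatives numbered 20, and 1 more, without cells holding a Dcn or Lum UMI, was chosen after seeing the data. Brain libraries were not analysed here beyond their barcodes. A few genes are not reported here.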

Additional observations from a re-analysis of the deposited data

Results flagged for a closer look

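Mfap5, Mfap4 and C3 were at least 2-fold higher in pericytes of the infarct and at least 2-fold higher in smooth muscle of the peri-infarct library under the same rule. Log2 ratios, infarct first, were 1.12 and -1.65 for Mfap5, an elastic microfibril protein, 1.45 and -2.70 for Mfap4, and 1.40 and -3.98 for complement C3. In peri-infarct pericytes and smooth muscle the levels were 48.1 and 153 CPM for Mfap5, 40.1 and 267 for Mfap4, and 17.1 and 284 for C3. In the infarct library C3 had 48 smooth muscle UMIs in 12 cells and 873 pericyte UMIs in 88 cells. These genes were higher in fibroblasts of the infarct library than in either class, at 2206, 1522 and 638 CPM in the same order. The difference between the libraries was not tested, and the part of fibroblast RNA in it was not tested.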

How the results depend on the processing

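Over 20 alternatives chosen at the start and 1 added after seeing the data, the counts of genes at least 2-fold apart stayed within 1.5 times of 246 and 273 in 38 of 42 values. They were 578 and 431 with a mean CPM of at least 20, and 127 and 170 with a mean of at least 100. The genes called changed more than their number. With Kcnj8 or Higd1b cells kept, 62.2% of the 246 and 74.0% of the 273 were called again. The shares were 61.8% and 67.0% with at most 5% mitochondrial UMIs, and 61.0% and 82.4% with no exclusion genes. Thinning cells before the rule gave 68.3% and 76.6%, and leaving out the highest doublet scores 97.2% and 96.3%. Of values for 212 named genes, 21 changed sign. Without cells above 5% mitochondrial UMIs Atf3 was at 0.11 and C3 at -0.63. Without the tenth of cells with the most UMIs Cthrc1 was at -0.18 and C3 at -0.029. Cenpf was at -0.0148 with Kcnj8 or Higd1b cells kept. With more exclusion genes Mfap4 was at -0.17 and Cthrc1 at -0.89. With cells thinned before the rule Cenpf was at -0.50, Stmn1 at -0.0089, Mfap5 at -1.87, Prc1 at -0.64, Mki67 at -0.92, Hmgb2 at -0.043, Mfap4 at -0.94, Top2a at -0.90, Cthrc1 at -1.26, Col8a1 at -0.69 and C3 at -0.16. Top2a was at -0.88 without dividing cells. Without cells holding a Dcn or Lum UMI Cthrc1 was at -0.32 and C3 at -0.31. The cause of these changes was not tested. Over all settings Acta2 ranged from -3.55 to -2.38, Pln from -10.01 to -6.47, Postn from 1.13 to 4.49 and the thin filament median from -2.40 to -1.87. The list median changed sign in 14 of 21 settings for the 4 RGS genes, in 7 for solute carriers, in 4 for CCN and IGF genes, in 3 for adhesion and surface genes, in 2 each for elastic fibres and integrins, and in 1 each for the Notch, complement, cell cycle and vasoactive receptor lists. No paired analysis was possible because each condition has 1 library. The 132 smooth muscle cells limit genes with few UMIs there.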
